A study of Mus musculus with 53 samples.

Results

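Transcript levels of 6 interleukin genes, Il33, Il34, Il18, Il16, Il1rap and Il1rapl1, were followed through 4 regions of the brain in a mouse model of spinocerebellar ataxia type 3 (SCA3). They are 6 of the 12372 genes of the deposited count table and were taken by symbol. Il33 was chosen by its measured counts, for its lower level in SCA3 than in wild-type mice in all 4 regions, so its genotype differences are given as a description, with no test. The other 5 genes carry an interleukin or interleukin receptor name, as do 15 further genes of the table. These 5 were chosen with earlier results of these data known, so their tests between genotypes are a description too.

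SCA3 mice were hemizygous MJD84.2 mice, in which a transgene of the human ATXN3 locus, with its CAG repeat expanded, is present beside mouse Atxn3. Its expression is controlled by human ATXN3 sequence and is not limited to 1 cell type. Controls were wild-type mice, and both groups were male C57BL/6 mice of 74 to 77 weeks (17.5 months). Brainstem was sequenced from 8 controls and 6 SCA3 mice, striatum from 8 and 5, and both cerebellum and cortex from 7 and 6, giving 53 libraries from 14 mice with 1 library per mouse and region. All tissue was taken at a nominal 17.5 months. SCA3 mice 9083513, 9083514 and 9083515 were 74 weeks old, the other SCA3 mice and all wild-type mice 75 or 77 weeks. Libraries are named by region, genotype and mouse number.

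Interleukins are signalling proteins of the immune system, and several are made by resident cells of the brain. IL-33 and IL-18 belong to the IL-1 family. IL-33 is stored in the nucleus, in the brain largely in oligodendrocytes and astrocytes, and acts as an alarm signal when cells are damaged, through the receptor ST2 (gene Il1rl1) together with the co-receptor IL-1RAcP (gene Il1rap). IL-18 is released after cleavage by caspase-1. IL-34 is made by neurons and keeps microglia alive through the receptor CSF1R. IL-16 is cut from a large precursor that carries PDZ domains, and a longer neuronal form is known from cerebellar granule cells. IL1RAPL1 is a relative of IL-1RAcP that organises synapses, and neuronal IL-1RAcP does so too, both through receptor tyrosine phosphatases on the opposite side of the synapse.

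The sequences that matter for reading the Il33 counts are those around its annotated starts and the primer pair with which the study measured Il33 by qPCR. The gene (ENSMUSG00000024810) lies on chromosome 19, 29925114 to 29960718, plus strand, in GRCm38. RefSeq gives it 2 start sites, and of its 5 GENCODE transcripts 3 begin upstream of the second start. The counts add up reads of all of them. The 250 bases before each start are shown on the plus strand, 5′ to 3′, with matches to TATAAA in capitals. The first stretch is chr19:29924863-29925112 and the second, which lies in an intron of the longer transcripts, is chr19:29945540-29945789.
Il33 start 1: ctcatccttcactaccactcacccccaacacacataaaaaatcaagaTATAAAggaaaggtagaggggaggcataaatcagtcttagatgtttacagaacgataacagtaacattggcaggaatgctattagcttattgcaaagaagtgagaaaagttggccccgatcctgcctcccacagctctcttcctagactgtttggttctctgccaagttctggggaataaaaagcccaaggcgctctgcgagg
Il33 start 2: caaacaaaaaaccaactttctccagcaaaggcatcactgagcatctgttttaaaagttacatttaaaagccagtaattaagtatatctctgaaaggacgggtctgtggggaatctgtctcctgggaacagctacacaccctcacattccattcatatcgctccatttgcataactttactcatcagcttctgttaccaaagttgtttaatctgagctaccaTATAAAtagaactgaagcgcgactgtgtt
TATAAA was searched on both strands. It stands at -203 to -198 before the first start and at -29 to -24 before the second, and 12.4% of 32851 such stretches over all RefSeq genes hold it. ACAAAG, a core bound by Sox factors, was also searched on both strands and is in neither stretch, against 16.5% of all stretches.

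The qPCR primers fall in neighbouring exons that both starts share, and 4 of the 5 transcripts hold the pair. They are shown 5′ to 3′, the reverse primer being the complement of the plus strand.
mIl33_Qex2_Fw: tccaactccaagatttccccg
mIl33_Qex3_Rev: catgcagtagacatggcagaa
The forward primer matches chr19:29949692-29949712 and the reverse primer chr19:29951999-29952019. A difference in the choice between the 2 RefSeq starts would therefore be seen neither by this pair nor by the summed counts. The remaining transcript holds only the reverse primer, in its first exon, so the pair does not measure it while the counts include it.

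Library totals ranged from 31.7 to 76.7 M counts, and the members had between 89 and 16297 counts in a library. The labelled cerebellum was set apart by its markers, with mean log2 CPM (counts relative to TMM-scaled library size) of 7 cerebellar genes of at least 9.18 there and at most 5.72 elsewhere. Marker levels of the other regions overlapped, since striatal markers reached 8.31 in cortex libraries and 7.36 was their lowest value in striatum. Mouse Atxn3 differed between genotypes by 0.01, 0.11, 0.14 and 0.33 (log2, in the order brainstem, cerebellum, cortex, striatum) (edgeR FDR = 0.00012 in striatum and 0.976 or more elsewhere), a call lost in striatum alone with an astrocyte marker score as a covariate (0.30, FDR 0.11). The human gene was not read separately from it. RNA integrity (RIN) was higher in SCA3 brainstem libraries, at a mean of 7.78 against 7.24 (exact two-sided permutation p = 0.011, adjusted p = 0.043), and differed by 0.12 or less in the other regions. The wild-type striatal libraries of mice 7267058 and 7267059 stood apart, with 1903 and 3123 CPM summed over 11 thalamus markers against 243 to 559 CPM in the other striatal libraries. In brainstem, the libraries of wild-type mouse 9083373 and SCA3 mouse 7267054 held 38.1 and 68.3 CPM of the cerebellar granule cell gene Cbln3, against 1.07 to 5.92 CPM in the others.

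Il33 was lower in SCA3 than in wild-type mice in every region, and no SCA3 library reached the lowest wild-type library of its region. In brainstem, wild-type libraries ran from 121 to 186 CPM with a median of 169, and SCA3 libraries from 57.5 to 72.4 CPM with a median of 64.7. In cerebellum, the wild-type range was 33.21 to 61.7 CPM (median 58.2) and the SCA3 range 18.1 to 32.96 CPM (median 25.4). These cerebellar groups nearly touched, the highest SCA3 library (mouse 9083515) lying just under the lowest wild-type library (mouse 9083371). In cortex, wild-type libraries ran from 47.4 to 78.5 CPM (median 69.3) and SCA3 libraries from 34.2 to 39.4 CPM (median 36.7). In striatum, wild-type libraries ran from 83.9 to 219 CPM (median 118), and the 5 SCA3 libraries had 45.4, 52.3, 54.1, 60.2 and 76.4 CPM. The highest wild-type values, 180 and 219 CPM, belonged to the striatal libraries with the most thalamus marker signal.

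**Figure D1:**
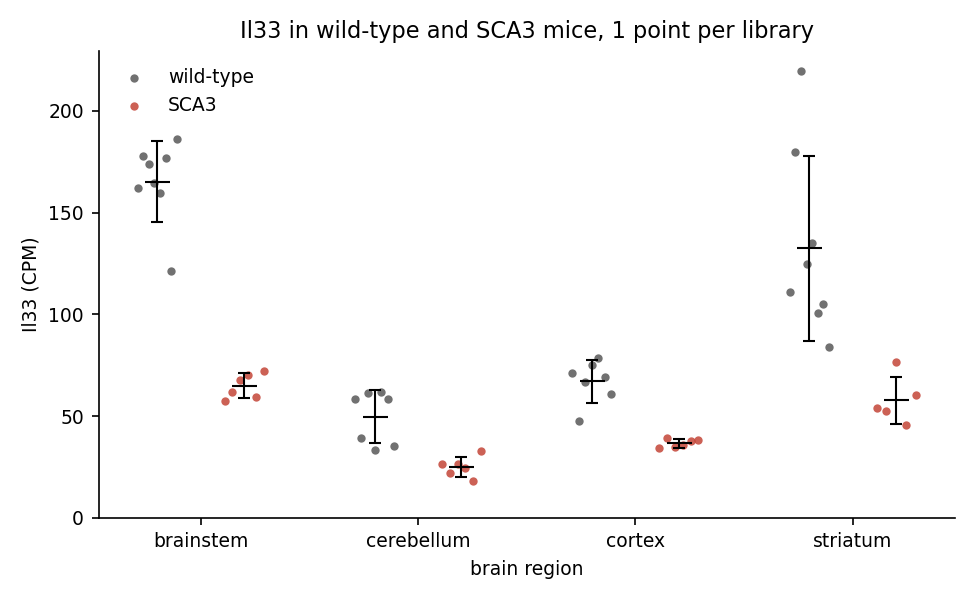
Il33 level in CPM (linear axis from 0) in each of the 53 libraries, by brain region and genotype; bars give mean ± SD over libraries. SCA3 libraries lie below all wild-type libraries of the same region, with the narrowest gap in cerebellum.

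Mean Il33 levels were 165 ± 19.8 CPM (SD, n = 8) in wild-type and 64.8 ± 6.14 CPM (n = 6) in SCA3 brainstem, 49.6 ± 13.0 and 25.1 ± 5.02 CPM in cerebellum (n = 7 and 6), 67.0 ± 10.4 and 36.7 ± 2.17 CPM in cortex (n = 7 and 6), and 132 ± 45.4 and 57.7 ± 11.7 CPM in striatum (n = 8 and 5). The fitted log2 difference was -1.35 (SE 0.16) for brainstem, or 2.55-fold lower, and -1.20 (SE 0.17) for striatum, or 2.3-fold lower. It was -0.98 (SE 0.16) for cerebellum, or 1.98-fold lower, and -0.87 (SE 0.16) for cortex, or 1.83-fold lower. In brainstem 2 genes of the table had a more negative difference, in cerebellum 13, in cortex 11 and in striatum 83. Since these contrasts chose Il33, the shares of all genes whose SCA3 libraries were all lower than every wild-type library are given only as background. They were 0.614% in brainstem, 0.105% in cerebellum, 0.0808% in cortex and 0.412% in striatum, and counted in either direction 1.38%, 0.234%, 0.251% and 0.655%. In tissue pieces, fewer cells that make a transcript and less transcript per cell cannot be told apart.

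The Il33 difference was more negative in brainstem than in cortex by 0.48 (SE 0.23) and than in cerebellum by 0.37 (SE 0.23), and striatum and brainstem differed by 0.15 (SE 0.23). No test was made of these, as all 4 differences had entered the choice of the gene. Mouse numbers fall into 3 series by their leading digits. As the genotypes did not overlap in any region, Il33 had to be lower in SCA3 mice within each series. The values by series are therefore a description and no support. In the series of mouse 9083371 all wild-type mice were 75 weeks old and all SCA3 mice 74 weeks, so age and genotype cannot be told apart there. In the series of mouse 7267058, that of mouse 9082857 and that of mouse 9083371, in this order, the log2 differences were -1.52, -1.28 and -1.24 in brainstem, -0.98, -1.22 and -0.89 in cerebellum, -0.66, -0.95 and -0.92 in cortex, and -1.62, -0.71 and -1.0 in striatum. The series of mouse 9082857 held a single mouse of each genotype. Without the striatal libraries of mice 7267058 and 7267059, left out after the data were seen, the striatal difference was -0.93.

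Markers of the cells that hold IL-33 were also lower in some regions. Of 20 mature oligodendrocyte markers, 18 had a negative SCA3 difference in brainstem, 13 in cerebellum, 8 in cortex and 18 in striatum, with medians of -0.27, -0.12, 0.07 and -0.39 on the log2 scale. Of these, 4 passed an FDR of 0.05 in brainstem and 7 in striatum, all lower, where 1.15% and 5.47% of all genes were called lower. Their summed level ran from 12034 to 24940 CPM in wild-type and from 11041 to 18490 CPM in SCA3 brainstem, and from 7685 to 22432 and 7149 to 10914 CPM in striatum. In cortex the sums were 3070 to 6367 CPM in wild-type and 3370 to 5704 CPM in SCA3 mice, and in cerebellum 4082 to 6359 and 3666 to 5587 CPM. Of 12 astrocyte markers, 11, 9, 11 and 11 had a negative difference in brainstem, cerebellum, cortex and striatum, with medians of -0.32, -0.06, -0.12 and -0.31. Among them 5 passed in brainstem and 5 in striatum. Their sums ran from 5585 to 11059 CPM in wild-type and 5157 to 7215 CPM in SCA3 brainstem, and from 5359 to 7733 and 5383 to 5946 CPM in striatum. The highest striatal sums of both lists belonged to wild-type mice 7267058 and 7267059, with 16233 and 22432 CPM of oligodendrocyte and 7091 and 7733 CPM of astrocyte markers, the other 6 wild-type libraries reaching 14060 and 7006 CPM. Without these libraries none of the 20 and none of the 12 markers passed in striatum, where 2.34% of all genes were called, and the medians were -0.06 and -0.22. No marker of either list was at 0 in any region. Of 12 microglia markers, 12 had a negative difference in brainstem, of which 1 passed (0 without the Cbln3-rich libraries), and the median was -0.15. In striatum 11 of them were negative, with a median of -0.04, and 4 without the libraries of mice 7267058 and 7267059. Of 10 endothelium markers, 10 were negative in cerebellum, with a median of -0.20 and none passing. The 11 thalamus markers had a median difference of -1.41 in striatum, where all 11 values were negative and 6 passed, and one of 0.06, with 1 passing, without the libraries of mice 7267058 and 7267059. Among 9 striatum markers 0 were negative in striatum and none passed, with a median of 0.47, or 0.26 without these libraries. The part of these cell types and of the thalamic signal in the Il33 difference was not tested beyond the fits that follow.

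To see how the Il33 difference stood beside these values, the libraries of each region were fitted alone with a marker score or RIN as a covariate. With the mature oligodendrocyte score the Il33 difference was -1.25 in brainstem, -0.77 in cerebellum, -0.88 in cortex and -0.85 in striatum. With the astrocyte score it was -1.19, -1.04, -0.87 and -0.78, and with the thalamus score -1.34, -0.80, -0.87 and -0.94. With RIN, a fit added after the data were seen, it was -1.28, -0.95, -0.94 and -1.20. Without a covariate these fits gave -1.35, -0.98, -0.87 and -1.20. Each marker score brought the value nearer to 0 in brainstem and in striatum. In cerebellum the oligodendrocyte and thalamus scores did so and the astrocyte score did not. In cortex the values with the 3 scores were -0.88 to -0.87.

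**Figure D2:**
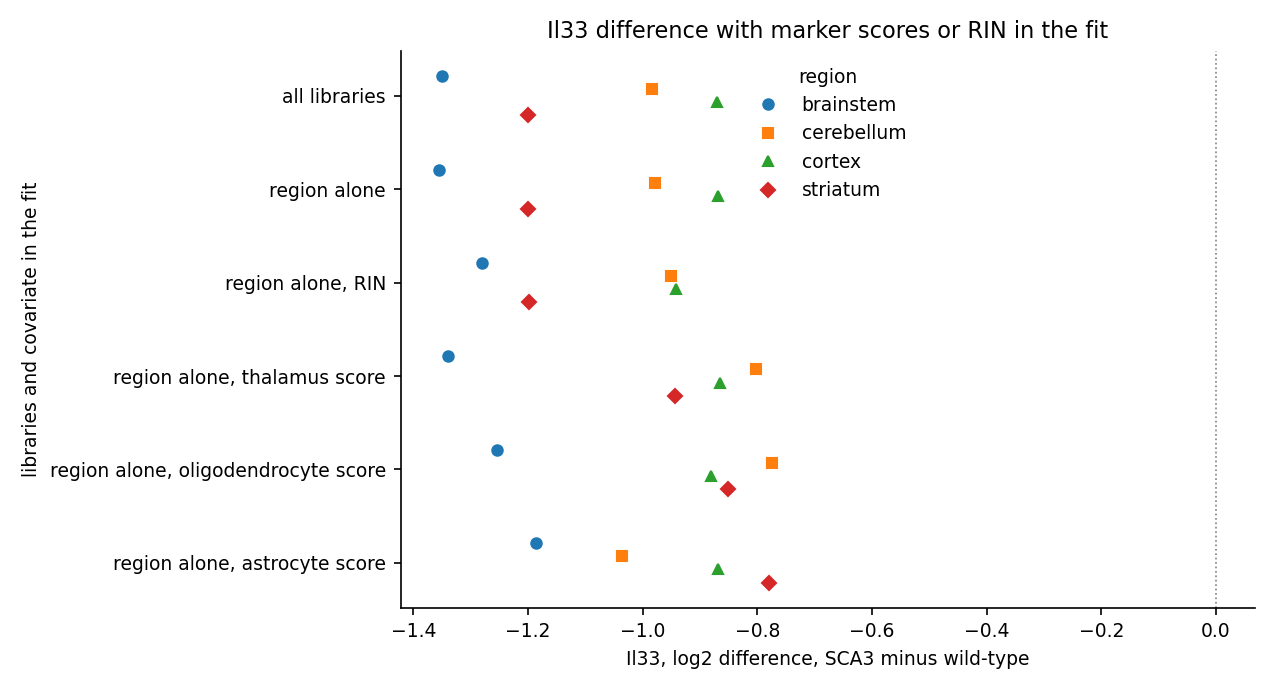
Fitted Il33 difference (log2, SCA3 minus wild-type, x axis) in the fit of all libraries and in fits of each region alone, without a covariate or with RIN or a marker score; 1 symbol per region. All values lie between -1.35 and -0.77, the striatal value moving most, from -1.20 to -0.78 with the astrocyte score.

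Within groups, Il33 levels varied with those of oligodendrocyte genes. Likeness was measured as Pearson's r of the deviations from the 8 group means of log2 CPM over 53 libraries, which holds neither the region nor the genotype difference. The libraries come from 14 mice and share dissections, so r is a description. The 5 genes most like Il33 were Mal (r = 0.897), a lipid raft protein of myelin, Gatm (0.883), which makes the creatine precursor guanidinoacetate, Gpr37 (0.869), a receptor of oligodendrocytes, Atp10b (0.866), a phospholipid flippase, and Cldn11 (0.862), the claudin of myelin tight junctions. The 99th percentile over all genes was 0.722, and Mal and Cldn11 are also on the list of mature oligodendrocyte markers. In the 30 wild-type libraries alone, 6 of the 10 most similar genes were the same. The 20 mature oligodendrocyte markers had a median r with Il33 of 0.786, from 0.283 to 0.897, and the 12 astrocyte markers one of 0.284, from -0.458 to 0.494, against 0.004 for all genes.

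The mean of the 20 oligodendrocyte markers had an r of 0.80 with Il33 (Spearman's rank correlation 0.75), and 0.74 without the 2 libraries farthest from the median of that score. It was 0.84 in wild-type and 0.67 in SCA3 libraries. By region it was 0.96 in cerebellum, 0.95 in striatum, 0.71 in cortex and 0.59 in brainstem. The thalamus score had an r of 0.56 with Il33, the microglia score 0.55, the astrocyte score 0.41 and RIN -0.07.

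**Figure D3:**
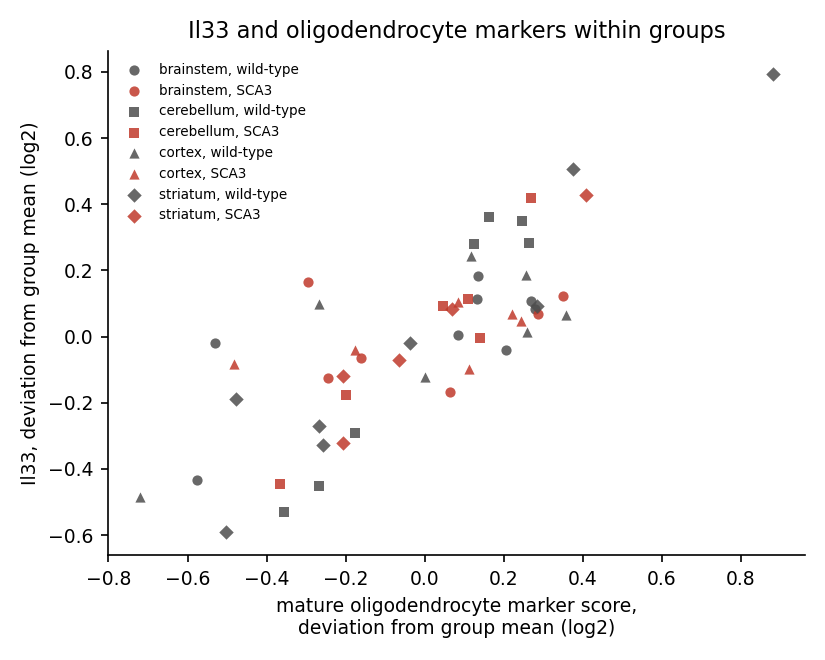
Deviation of Il33 from its group mean (log2, y axis) against the deviation of the mean of 20 mature oligodendrocyte markers (log2, x axis), 1 symbol per library, shape by region and colour by genotype. The points lie along a rising line (r = 0.80 over 53 libraries), and the point at the upper right is the striatal library of wild-type mouse 7267059.

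The genes most like Il33 did not all share its genotype difference. Mal was lower by 0.65 (SE 0.18, FDR 0.025) in brainstem and by 0.80 (SE 0.19, FDR 0.0033) in striatum, and its values in cerebellum and cortex were -0.39 (FDR 1.0) and -0.30 (FDR 1.0). Cldn11 was lower by 0.67 (SE 0.18, FDR 0.013) in striatum, and its brainstem value was -0.57 (FDR 0.058; 0.0066 in brainstem alone). Without the striatal libraries of mice 7267058 and 7267059, neither passed in striatum (Mal -0.49, FDR 0.11; Cldn11 -0.42, FDR 0.21), nor did they in striatum alone (FDR 0.12 and 0.15) or when libraries of a RIN under 7 were left out (FDR 0.062 and 0.097). The striatal Cldn11 call was also lost without wild-type mouse 7267059 or SCA3 mouse 7267054, 7267056 or 9083515 (FDR 0.057 to 0.082). The brainstem Mal call was lost without SCA3 mouse 7267054, 7267056, 9083514 or 9083515 (FDR 0.060 to 0.11), with RIN as a covariate (-0.60, FDR 0.078) and with limma-voom (FDR 0.051). The values of Gatm ran from -0.39 to 0.12, those of Gpr37 from -0.27 to 0.16 and those of Atp10b from 0.11 to 0.65, and none of these 3 genes passed in any region. Mean Mal levels were 444 ± 82.8 CPM in wild-type and 282 ± 44.0 CPM in SCA3 brainstem, and 437 ± 177 and 251 ± 59.4 CPM in striatum (SD).

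None of the other 5 interleukin genes passed an FDR of 0.05 in any region, so 0 of 20 tests were called with edgeR's likelihood ratio test. The shares of all genes called were 1.92% in brainstem, 0.0647% in cerebellum, 0.154% in cortex and 7.54% in striatum, rates at which fewer than 1 of the 20 tests would be called. The quasi-likelihood test, DESeq2 and limma-voom also called 0. Fits of the brainstem libraries alone did make calls, namely 1 (Il1rap, 3.17% of all genes called), 1 with the thalamus score (Il1rap, 5.47%), 3 with the oligodendrocyte score (Il34, Il1rap and Il1rapl1, 9.23%) and 1 with the astrocyte score (Il1rapl1, 10.1%), all lower in SCA3 mice. By chance alone about 1 in 20 tests has an unadjusted p below 0.05. Here 2 did (both Il1rap) with the likelihood ratio test, and 1, 2 and 3 with the other tools. These counts were not set against all genes and are only a description. In the combined test over regions (4.73% of all genes called) and in the test of region dependence (0.218% called) 0 of these 5 genes passed, the smallest adjusted p being that of Il1rap in each, 0.23 and 0.60.

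**Figure D4:**
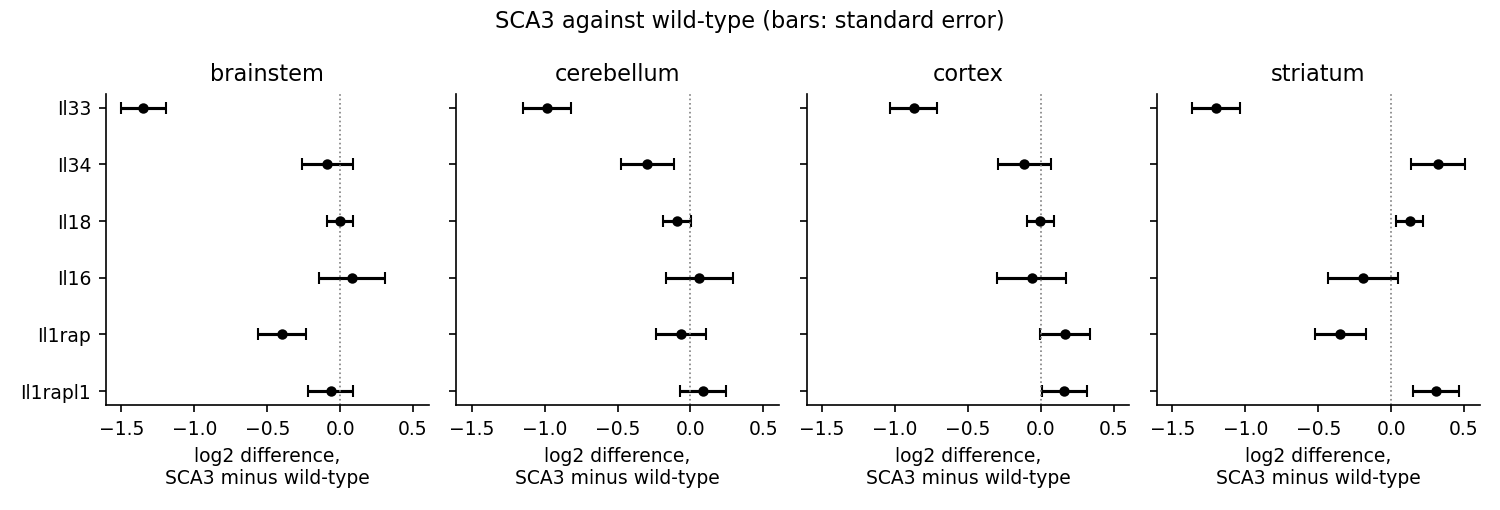
Fitted log2 difference between SCA3 and wild-type mice (x axis) for each of the 6 genes in each region, with bars of 1 standard error. Il33 lies between -1.35 and -0.87, and the values of the other genes lie between -0.40 and 0.32.

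Il18, the other IL-1 family ligand (chromosome 9, 50554827 to 50581840, plus strand, GRCm38), had the narrowest intervals of the members. Its brainstem levels were 16.8 to 19.9 CPM in wild-type libraries (median 19.4) and 17.4 to 21.1 CPM in SCA3 libraries (median 19.1). In striatum they were 19.8 to 28.4 CPM (median 22.5), and 22.1, 24.6, 25.9, 26.0 and 27.4 CPM in the 5 SCA3 libraries. The groups overlapped in both regions. The differences were 0.00 in brainstem (95% interval -0.18 to 0.18), -0.09 in cerebellum (-0.28 to 0.10), 0.00 in cortex (-0.19 to 0.18) and 0.13 in striatum (-0.06 to 0.31). These intervals leave out a change of the size seen for Il33 in each region.

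Il34, the neuronal CSF1R ligand (chromosome 8, 110741829 to 110805924, minus strand), had its largest values in opposite directions in 2 regions. In striatum the wild-type libraries ran from 23.3 to 54.6 CPM (median 40.6), and the SCA3 libraries had 35.2, 50.7, 51.6, 52.9 and 56.9 CPM. The lowest wild-type values, 23.3 and 24.5 CPM, were again those of mice 7267059 and 7267058, with the most thalamus marker signal. The striatal difference was 0.32 (95% interval -0.04 to 0.69, unadjusted p = 0.081, edgeR FDR 0.28). It was 0.14 (FDR 0.78) without the libraries of these mice, and it turned to -0.10 (FDR 0.84) in the striatum alone with the astrocyte score. In cerebellum, levels of 6.85 to 15.7 CPM in wild-type and 6.51 to 12.9 CPM in SCA3 libraries gave a difference of -0.29 (-0.66 to 0.07, FDR 1.0). Brainstem and cortex differed by -0.09 (-0.43 to 0.26) and -0.11 (-0.47 to 0.24). In fits of the brainstem alone the value was -0.31 with the oligodendrocyte score, which passed (FDR 0.033), and -0.36 with the astrocyte score, which did not (FDR 0.10).

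Il16, the ligand of CD4 (chromosome 7, 83642825 to 83745726, minus strand), was measured with the widest intervals of the 6 genes. Its brainstem libraries lay between 3.84 and 6.07 CPM except for 15.2 CPM in SCA3 mouse 7267054 and 11.5 CPM in wild-type mouse 9083373. These were the libraries with 68.3 and 38.1 CPM of Cbln3, and their sums over 7 cerebellum markers, 422 and 408 CPM, were also the highest of the brainstem. The part of cerebellar tissue in these values was not tested. The brainstem difference was 0.08 (95% interval -0.36 to 0.53), and its direction turned with these libraries. It was -0.44 without SCA3 mouse 7267054, 0.31 without wild-type mouse 9083373 and -0.21 without both brainstem libraries, none of which passed (FDR 0.29 to 0.58). The differences in cerebellum, cortex and striatum were 0.06, -0.06 and -0.19, with groups that overlapped in each. Il16 shares 1202 exon bases with Stard5 on the opposite strand, and as strand was not kept, reads there cannot be assigned to either gene, which makes its level uncertain.

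Il1rap, the co-receptor of the IL-33 and IL-1 receptors (chromosome 16, 26581704 to 26730117, plus strand), had the lowest unadjusted p of the 5 genes. In brainstem, wild-type libraries ran from 39.2 to 61.8 CPM (median 54.4) and SCA3 libraries from 35.2 to 47.4 CPM (median 40.3). The groups overlapped through wild-type mouse 9083373, at 39.2 CPM, the other wild-type libraries being at 50.3 CPM or above. The difference was -0.40 (SE 0.17, unadjusted p = 0.017, edgeR FDR 0.24), and fitting the brainstem libraries alone gave the same difference with an FDR of 0.0070. That call was lost when RIN was added to the fit of brainstem alone (-0.22, FDR 0.45) or the astrocyte score (-0.15, FDR 0.26). In striatum the wild-type range was 27.7 to 80.9 CPM (median 36.5), and SCA3 libraries had 29.5, 31.7, 32.4, 34.1 and 43.5 CPM. The striatal difference was -0.35 (SE 0.18, unadjusted p = 0.049, FDR 0.21), with the highest wild-type values, 61.5 and 80.9 CPM, in mice 7267058 and 7267059. It was -0.16 without mouse 7267059 and -0.01 without the striatal libraries of both, and turned to 0.04 and 0.16 in the striatum alone with the oligodendrocyte or the astrocyte score. Within the series of mouse 9083371 the striatal difference was -0.01, within that of mouse 9082857 it was 0.16, and within the series that holds mice 7267058 and 7267059 it was -0.84. Cerebellum and cortex had differences of -0.07 (-0.40 to 0.27) and 0.16 (-0.17 to 0.50). An antisense gene, Gm20319, shares 353 exon bases with Il1rap. Deviations of Il1rap from its group means had an r of 0.68 with those of Il33 and of 0.72 with the mature oligodendrocyte score.

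Il1rapl1, the synaptic receptor relative (chromosome X, 86740870 to 88115645, minus strand), had 89 to 508 counts in a library and the lowest mean over all libraries, 5.59 CPM before TMM scaling, near the 4 CPM that the table required. In wild-type cortex and striatum Il16 was lower (4.23 and 4.35 CPM against 6.68 and 6.14 CPM). Its striatal libraries ran from 3.77 to 8.06 CPM in wild-type mice (median 6.37), and the SCA3 libraries had 6.83, 7.61, 7.71, 7.82 and 8.05 CPM. The SCA3 values lay in the upper part of the wild-type range, and the difference was 0.31 (SE 0.16, unadjusted p = 0.050, edgeR FDR 0.22). In brainstem, cerebellum and cortex it was -0.06, 0.09 and 0.16, with 95% intervals that included 0. In fits of the brainstem alone it was -0.07 without a score (FDR 0.90), -0.34 with the oligodendrocyte score (FDR 0.032) and -0.51 with the astrocyte score (FDR 0.0035), so that the call depended on the score.

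The levels of the 6 genes in the healthy brain were compared between regions in wild-type mice, a contrast other than the one that chose Il33. Each of the 6 genes differed between regions (edgeR test of any region difference, FDR 2.45e-06 for Il1rapl1 and smaller for the others), as did 93.0% of all genes. Of 36 tests of a gene between a pair of regions, 29 passed. All 6 genes passed between cerebellum and cortex (69.7% of all genes) and between cerebellum and striatum (69.5%), and 5 between brainstem and cerebellum (72.6%). Between brainstem and cortex (65.4%), brainstem and striatum (64.2%), and cortex and striatum (34.4%) 4 passed each. Groups that did not overlap were fewer. They were found for 5 of the 6 genes between brainstem and cerebellum (48.1% of all genes), 3 between brainstem and cortex (29.3%), 0 between brainstem and striatum (19.2%), 4 between cerebellum and cortex (41.9%), 4 between cerebellum and striatum (37.0%) and 1, Il33, between cortex and striatum (4.66%).

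**Figure D5:**
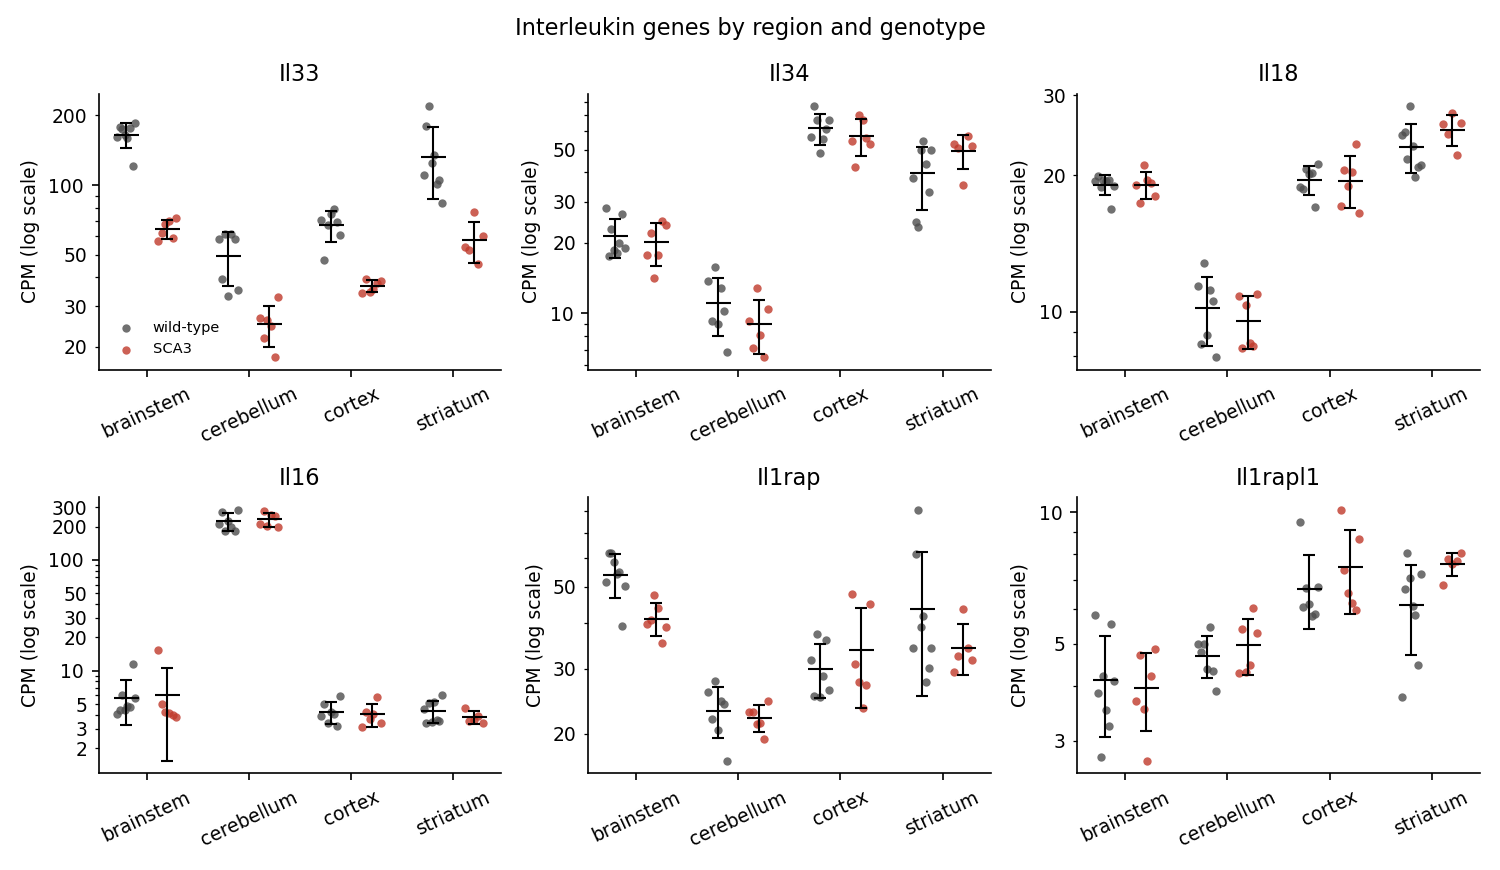
Level in CPM (log axis) of each of the 6 genes in each library, by region and genotype, with mean ± SD. Il16 stands far higher in cerebellum than elsewhere in both genotypes, the other 5 genes differ less between regions, and Il33 alone has SCA3 points below the wild-type points in each region.

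Il33 was highest in wild-type brainstem (165 CPM), followed by striatum (132), cortex (67.0) and cerebellum (49.6). Brainstem exceeded cortex by 1.30 (SE 0.15, FDR 3.77e-16) and cerebellum by 1.74 (SE 0.15, FDR 2.03e-27) on the log2 scale, with no overlap of libraries. Brainstem and striatum overlapped, and their difference of 0.32 (SE 0.14, FDR 0.044) did not pass with RIN as a covariate (0.31, FDR 0.054), in the fit of wild-type libraries alone (FDR 0.085) or with the mouse as a fixed block in that fit (FDR 0.070). It was also lost without any of wild-type mice 7267055, 9082857, 9083371, 9083372, 9083373 and 9083375 (FDR 0.056 to 0.19) or SCA3 mice 7267054, 7267056, 9082853 and 9083513 (FDR 0.051 to 0.053). Without the striatal libraries of mice 7267058 and 7267059, which had the highest striatal Il33, it was larger, at 0.59 (FDR 3.33e-05). Cortex exceeded cerebellum by 0.43 (SE 0.16, FDR 0.0085), with overlapping libraries, and without wild-type mouse 9083371 the FDR was 0.069. In SCA3 mice the means had the same order, at 64.8, 57.7, 36.7 and 25.1 CPM.

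Il34 had another order, with 61.7 ± 9.33 CPM in cortex, 39.6 ± 11.9 in striatum, 21.3 ± 4.03 in brainstem and 11.1 ± 3.11 in cerebellum (SD). Each neighbouring pair differed, cortex from striatum by 0.64 (FDR 0.0010), striatum from brainstem by 0.89 (FDR 2.72e-07) and brainstem from cerebellum by 0.94 (FDR 1.37e-07). Only the last of these had groups that did not overlap. Il18 was highest in striatum (23.1 ± 2.80 CPM) and lowest in cerebellum (10.2 ± 1.78 CPM). Cortex and brainstem, at 19.5 ± 1.44 and 19.03 ± 0.947 CPM, differed by 0.04 (FDR 0.73) and were not told apart. Striatum exceeded cortex by 0.24 (FDR 0.019), a call lost without wild-type mouse 7267058 (FDR 0.079) or 9082857 (FDR 0.061), or when libraries of a RIN under 7 were left out (FDR 0.087). Cerebellum lay below all other regions with no overlap, by 0.90 to 1.18.

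Il16 differed most between regions, with 222 ± 40.7 CPM in wild-type cerebellum (SD, n = 7) and 5.71 ± 2.45, 4.35 ± 1.01 and 4.23 ± 0.943 CPM in brainstem, striatum and cortex. Cerebellum was above brainstem by 5.28 (SE 0.22, FDR 5.31e-96), above striatum by 5.68 (SE 0.22, FDR 4.87e-107) and above cortex by 5.72 (SE 0.22, FDR 6.14e-96). The SCA3 cerebellum had a similar mean of 232 ± 32.3 CPM (n = 6). Among the other regions no pair passed, the smallest FDR being 0.069 for brainstem against cortex. In the fit of wild-type libraries alone, brainstem passed against both cortex (0.44, FDR 0.037) and striatum (0.40, FDR 0.049), as it did with the mouse added there as a fixed block (FDR 0.049 and 0.037). Both also passed without SCA3 mouse 7267054 (FDR 0.016 and 0.023), and brainstem against cortex without wild-type mouse 7267058 or 9083375 (FDR 0.045 and 0.039). The difference rested on the library of mouse 9083373 with its high Cbln3, without which it was 0.14 (FDR 0.57) against cortex and 0.12 (FDR 0.62) against striatum in the fit of all libraries.

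For the receptor genes the spread between regions was smaller than for Il16. Il1rap was at 54.0 ± 7.38 CPM in brainstem, 43.6 ± 18.3 in striatum, 30.0 ± 5.05 in cortex and 23.1 ± 3.63 in cerebellum. Brainstem and striatum were not told apart (difference 0.31, FDR 0.069). They were with limma-voom, both without (0.39, FDR 0.017) and with the mouse as a block (FDR 0.011), with the mouse as a fixed block in wild-type libraries (0.36, FDR 0.033), and without the Cbln3-rich brainstem libraries (FDR 0.036), mouse 7267058 (FDR 0.039) or mouse 7267059 (FDR 0.0027). Without the striatal libraries of both these mice the difference was 0.65 (FDR 2.34e-06). In that same setting striatum and cortex, which otherwise differed by 0.54 (FDR 0.0042), had a difference of 0.20 with the striatum higher (FDR 0.26), and without mouse 7267058 one of 0.41 (FDR 0.055). Cortex exceeded cerebellum by 0.38 (FDR 0.032), which was lost without wild-type mouse 9082857, 9083373 or 9083375 (FDR 0.059 to 0.075) and in the fit of wild-type libraries alone (FDR 0.054). Il1rapl1 was at 6.68 ± 1.29 CPM in cortex and 6.14 ± 1.44 in striatum, and at 4.69 ± 0.521 in cerebellum and 4.13 ± 1.07 in brainstem. Neither pair of neighbours, cortex and striatum (FDR 0.55) nor cerebellum and brainstem (FDR 0.27), passed, while striatum exceeded cerebellum by 0.39 (FDR 0.012). That call was lost without wild-type mouse 9083375 (FDR 0.072) or without the striatal libraries of mice 7267058 and 7267059 (FDR 0.075).

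Between genes, levels can be compared only per exon length, here as CPM per kilobase of the joined exons (RPKM). In wild-type brainstem Il33 was highest at 57.2 RPKM, followed by Il18 (18.5), Il34 (11.7), Il1rap (6.27), Il16 (0.979) and Il1rapl1 (0.443). In cerebellum Il16 led with 38.1 RPKM, above Il33 (17.2), Il18 (9.86) and Il34 (6.08). In cortex Il34 led with 33.8 RPKM, above Il33 (23.2) and Il18 (18.9), and in striatum Il33 led with 45.9 RPKM, above Il18 (22.4) and Il34 (21.7). In SCA3 mice Il18 had a higher mean than Il33 in 3 regions, at 24.4 against 19.99 RPKM in striatum, 18.9 against 12.7 in cortex and 9.27 against 8.68 in cerebellum. Il34 was above Il33 in striatum (27.1 RPKM) and cortex (31.2). In brainstem Il33 still had the highest mean, 22.5 RPKM against 18.5 for Il18. These orders were not tested.

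The genes most like the other members, by the same measure, were a different set for each gene. For Il34 they were Chrm1 (r = 0.878), a muscarinic acetylcholine receptor of forebrain neurons, and Ctxn1 (0.869). For Il18 they were Rerg (0.780) and Lppr1 (0.770). For Il16 they were Homer3 (0.725), a scaffold of Purkinje cells, and Cbln3 (0.703), the cerebellin of granule cells. For Il1rap they were Ptprd (0.877), a receptor tyrosine phosphatase that binds IL-1RAcP and IL1RAPL1 across the synapse, and Ttll7 (0.859), a tubulin polyglutamylase. For Il1rapl1 they were Herc1 (0.724), a large ubiquitin ligase, and Kcnma1 (0.722), the BK potassium channel. The 99th percentile over all genes was between 0.386 (Il16) and 0.742 (Il1rap). None of these 10 genes passed an FDR of 0.05 between genotypes. Cbln3 in brainstem, at 0.84 (FDR 0.59), rested on the libraries named above and turned with them, to -1.72 (FDR 0.047) without SCA3 mouse 7267054, 2.12 (FDR 0.022) without wild-type mouse 9083373 and -0.43 (FDR 0.66) without both brainstem libraries.

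The pathway around these genes was followed in 80 listed genes, of which 60 are in the table, among them 12 of the signal relay from the receptors, 19 of the NF-κB and MAP kinase steps, 7 synaptic partners and 15 further interleukin and receptor genes. The receptor of IL-33, Il1rl1, and the genes of IL-1α, IL-1β, the IL-18 receptor chains, caspase-1, the inflammasome sensor NLRP3 and CD4 are not among the genes of the table and were not analysed here. Of the 60 genes, 1 was called higher and 0 lower in brainstem, where 0.776% of all genes were called higher and 1.15% lower. In striatum 1 was called higher and 3 lower (2.07% and 5.47% of all genes), and 0 were called in cerebellum (0.0404% of all genes higher, 0.0242% lower) or in cortex, where 0.121% of all genes passed upwards and 0.0323% downwards. The median difference of the 60 genes was 0.01, 0.00, 0.00 and -0.01 in brainstem, cerebellum, cortex and striatum, against 0.00 for all genes in each region.

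Nfkbia, the inhibitor that NF-κB itself induces, was higher in SCA3 brainstem, at 14.01 ± 1.94 against 11.1 ± 1.32 CPM (SD, n = 6 and 8), a difference of 0.34 (SE 0.09, FDR 0.0091). The call was lost in the fit of the brainstem libraries alone, at 0.33 (FDR 0.064), and without the Cbln3-rich brainstem libraries, at 0.30 (FDR 0.072). RIN was also higher in these SCA3 libraries (7.78 against 7.24), and with RIN as a covariate, added after the data were seen, the difference was 0.34 (FDR 0.014) over all libraries and 0.40 (FDR 0.098) in brainstem alone. In cerebellum and cortex its values were 0.32 (FDR 0.26) and 0.26 (FDR 0.58), and in cerebellum the SCA3 libraries (13.2 to 18.7 CPM) did not overlap the wild-type libraries (11.2 to 12.8 CPM). Such groups were found for 0.234% of all genes in cerebellum, and Nfkbia was singled out for this after its values were seen. Its striatal value was 0.07 (FDR 0.70). Il1r1, the receptor of IL-1, had the largest value among list genes in cerebellum, at 0.32 (FDR 1.0), and Cd9, a binding partner of IL-16, that in cortex, at 0.33 (FDR 0.87).

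In striatum, Traf6, a ubiquitin ligase of the IL-1 receptor relay, was higher at 38.0 ± 2.47 against 32.0 ± 3.91 CPM, a difference of 0.25 (SE 0.07, FDR 0.016). Csf1, the other ligand of CSF1R, was lower at 23.4 ± 2.91 against 32.8 ± 8.38 CPM, a difference of -0.49 (SE 0.14, FDR 0.016), while the receptor gene Csf1r had a value of -0.06 (FDR 0.78). Rhog, a small GTPase listed with the synaptic partners, was lower by 0.66 (SE 0.15, FDR 0.0011), at 25.2 ± 2.65 against 39.9 ± 13.0 CPM. Il4ra, the IL-4 receptor chain, was lower at 4.97 ± 0.300 against 6.99 ± 2.12 CPM, a difference of -0.49 (SE 0.14, FDR 0.019). Without the striatal libraries of mice 7267058 and 7267059, left out after the data were seen, Rhog (-0.43, FDR 0.042) and Traf6 (0.29, FDR 0.010) passed, and Csf1 (-0.33, FDR 0.19) and Il4ra (-0.28, FDR 0.31) did not. Csf1 was also lost without wild-type mouse 7267059 or SCA3 mouse 7267054, 7267056 or 9083515 (FDR 0.061 to 0.090), and Il4ra without wild-type mouse 7267058 or 7267059 or SCA3 mouse 7267056, 9083514 or 9083515 (FDR 0.054 to 0.087). The Traf6 call was lost without SCA3 mouse 7267056 (FDR 0.051) or 9083515 (FDR 0.0505), and Rhog passed without each mouse in turn. Fitting the striatal libraries alone, where 0.711% of all genes were called, called none of these 4 genes. Their differences there were 0.25 for Traf6 (FDR 0.24), -0.49 for Csf1 (FDR 0.14), -0.66 for Rhog (FDR 0.087) and -0.49 for Il4ra (FDR 0.26). Fitting the brainstem libraries alone, where 3.17% were called, called Ptprd (-0.44, FDR 0.025) and Rhog (-0.44, FDR 0.0066) in place of Nfkbia. In the fit of all libraries their brainstem differences were -0.43 (FDR 0.091) and -0.44 (FDR 0.072). Of the 15 other interleukin and receptor genes of the table, Il4ra was the only one called in any region, and Il1r1 and Il18bp, the soluble inhibitor of IL-18, were not called.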

How the data were processed

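Poly-A RNA was sequenced from brainstem, cerebellum, cortex and striatum. The authors deposited raw counts for each gene in each library. By their methods, libraries that keep no strand were trimmed with cutadapt 1.10, aligned to GRCm38 with STAR 2.3.0e keeping unique reads, and counted per RefSeq gene with HTSeq 0.6.1. Genes averaging over 4 CPM were kept. Antisense reads were therefore not separated.

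Here, counts were TMM scaled and fitted with edgeR 4.0.16 in R 4.3.3, with 8 groups of region and genotype, all 53 libraries and likelihood ratio tests. P-values were adjusted over 12372 genes (Benjamini-Hochberg, FDR 0.05). Log2 CPM used a prior count of 2. The tests were tried on simulated counts. P-values rest on the spread between libraries within groups, with a dispersion per gene shared by all 8 groups. They do not measure the spread of a single region. With the striatal libraries fitted alone 0.711% of all genes were called there, against 7.54% in the shared fit. Libraries of the same mouse counted as independent, also in the combined test and in the tests between regions. RIN was compared by exact permutation. Alternatives used limma 3.58.1 and DESeq2 1.42.0.

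Libraries of 1 mouse pair the regions: deviations from group means correlated with a mean r of 0.090 to 0.19 over 6 pairs of regions. Genotype does not vary within a mouse.

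The members and lists were chosen with earlier results of these data known. Named genes were the 6 members, the 5 genes most like Il33 and 2 most like each other member, list genes called in a region or, where none was, up to 2 with the largest difference, and Atxn3. Positions come from GENCODE M21 and RefSeq (GRCm38.p6). RefSeq start sequences were matched for 5 of the 6 members, and those of Il33 are shown.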

Additional observations from a re-analysis of the deposited data

Results flagged for a closer look

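In each of 48 groups of a gene, region and genotype, the highest and lowest libraries were compared with the nearest other library by Dixon's test, in which chance alone marks about 1 group in 20. It marked 6 values, and 3 of them belonged to the brainstem library of wild-type mouse 9083373. In that library Il33 was at 121 CPM (next lowest 159), Il18 at 16.8 CPM (next lowest 18.8) and Il16 at 11.5 CPM (next highest 6.07). Without this mouse the brainstem Il33 difference was -1.41. The brainstem Il16 value of SCA3 mouse 7267054 was 15.2 CPM (next highest 4.96). In striatum, Il34 of SCA3 mouse 9082853 was at 35.2 CPM (next lowest 50.7), and in cortex, Il1rapl1 of wild-type mouse 7267055 was at 9.49 CPM (next highest 6.73).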

How the results depend on the processing

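The Il33 difference stayed negative in every region under every alternative. Il33 was chosen for this direction and its groups do not overlap, so this is a description and no support. Leaving out a mouse gave -1.41 to -1.32 in brainstem, -1.08 to -0.90 in cerebellum, -0.94 to -0.83 in cortex and -1.32 to -1.06 in striatum, and the largest move was -0.78 in striatum with the astrocyte score. With the mouse as a replicate block in limma-voom the differences were -1.35, -0.96, -0.87 and -1.16. For the other 5 genes, 0 calls became 1 in fits of each region alone (Il1rap, brainstem, where 3.17% of all genes were called), 1 with the thalamus score (Il1rap, brainstem, 5.47%), 3 with the oligodendrocyte score (Il34, Il1rap and Il1rapl1, all lower in brainstem, 9.23%) and 1 with the astrocyte score (Il1rapl1, brainstem, -0.51, 10.1%). The cause was not tested. Calls in the signalling and other interleukin lists went from 5 to 2 in fits of each region alone (Ptprd and Rhog in brainstem, 3.17% of all genes called, and 0 in striatum, 0.711%) and to 2 with RIN added there (Cd9, 0.49, FDR 0.019, and Traf6, 0.28, FDR 0.039, in brainstem, 1.75%; 0 in striatum, 0.776%). RIN as a covariate over all libraries gave 6 (1.43% of all genes called in brainstem, 8.16% in striatum), Mcf2l in striatum being gained (0.31, FDR 0.043). Leaving out a mouse gave 2 to 10. The 2 came without SCA3 mouse 7267056 (2.5% of all genes called in brainstem, 2.43% in striatum) or 9083515 (1.24% and 2.4%). The 10 came without wild-type mouse 9082857 (1.47% and 14.8%), and 8 without 9083371 (1.39% and 13.3%). Of 36 tests between wild-type regions, 26 to 30 passed without a mouse and 28 to 31 otherwise. In the fit of all libraries 29 passed, where 34.4% to 72.6% of all genes were called, depending on the pair of regions. Shares under the alternatives are not given. The wild-type libraries alone gave 29, with Il16 in brainstem against cortex (FDR 0.037) and striatum (FDR 0.049) gained, and Il33 in brainstem against striatum (FDR 0.085) and Il1rap in cerebellum against cortex (FDR 0.054) lost. Adding the mouse there as a fixed replicate block gave 31, with Il1rap called in both brainstem against striatum (FDR 0.033) and cerebellum against cortex. Both Il16 differences rested on wild-type mouse 9083373, without which they were 0.14 and 0.12 in the fit of all libraries, and were 0.21 and 0.17 without the Cbln3-rich brainstem libraries. Against limma-voom without it, the block changed no SCA3 call of the 5 genes or of these lists, Il4ra in striatum being lost in both (FDR 0.084 and 0.080). Groups of 5 to 8 mice limit the precision, and Il1rapl1, with 89 to 508 counts a library, also carries counting error. Of 1656 values of the 6 members under alternatives, 52 differed in sign from the value reported, of which 10 moved by over 1 SE and none was called. In fits of each region alone these were Il16 in brainstem with the astrocyte score (-0.16) or RIN (-0.15), Il1rap in striatum with the oligodendrocyte (0.040) or astrocyte score (0.16), Il34 in striatum with the astrocyte score (-0.10) and Il18 in cerebellum with the thalamus or oligodendrocyte score (0.022 and 0.023). Il16 in brainstem was -0.21 without the Cbln3-rich libraries and ran from -0.44 to 0.31 without a mouse, and Il1rapl1 between wild-type cortex and striatum from -0.062 (without mouse 7267055) to 0.18. The cause was not tested.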
